A study of Mus musculus with 8 samples.

Results

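The miR-30 family was followed through its 5 mouse members mmu-miR-30a, mmu-miR-30b, mmu-miR-30c, mmu-miR-30d and mmu-miR-30e, taking every microRNA feature whose name is one of these or begins with one of them and a hyphen. The species prefix is left out below. This gave 11 features, 5 of the 5p arm and 6 of the 3p arm, out of 813 microRNA features and 2403 small RNA features in the deposited table. The cells were immortalized fibroblasts from mouse skin, on the C57BL/6 background, either wild type (WT) or from mir210lox/lox mice (titled KO). Culture lasted 24 h at either 21% O2 (normoxia) or 1% O2 (hypoxia), which gives 4 groups with 2 small RNA libraries each, numbered 1 and 2. The labels name no Cre, no clone and no source animal, and they do not state a deletion beyond the titles. They do not say either whether the libraries of a group are separate cultures, and p-values then describe only the spread between these libraries, which may be technical.

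A microRNA hairpin is cut by Drosha and Dicer into a duplex, and one strand of it, the guide, is loaded into Argonaute and pairs with messenger RNAs mainly through its seed (bases 2 to 8 of the mature sequence), while the other strand is mostly degraded. In the miR-30 family the 5p arm is the usual guide and is the same in its seed across the members. The described targets of the family include connective tissue growth factor, a matrix-associated protein made by fibroblasts, and the transcription factor Snail1.

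The sequences listed in the file are given first, because they show which members share a seed and how far their tails differ. Each run is 5′ to 3′ as deposited, and starts 1 base before the mature microRNA. That offset was found for all 7 of the 11 features that matched a mature entry in the RefSeq table (GRCm38.p6), and it was applied to the others. The seed is in capitals.
miR-30a-5p: ctGTAAACAtcctcgactggaagc
miR-30d-5p: ctGTAAACAtccccgactggaagc
miR-30e-5p: ctGTAAACAtccttgactggaagc
miR-30b-5p: atGTAAACAtcctacactcagctg
miR-30c-5p: ttGTAAACAtcctacactctcagct
All 5 guide arms had the seed GUAAACA and shared their first 11 bases. Behind these they fell into a pair of sequence groups, miR-30a, miR-30d and miR-30e on one side and miR-30b and miR-30c on the other. With positions counted from 1 at the mature 5′ end, miR-30a-5p differed from miR-30d-5p by T12C and from miR-30e-5p by C13T. miR-30a-5p differed from miR-30c-5p at 5 and from miR-30b-5p at 7 of the first 22 bases, and miR-30b-5p from miR-30c-5p at 4. Of 1679 mature names in the RefSeq table the seed was carried by 1 microRNA outside the family, miR-384-5p, which is not listed in the table analysed here.

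The 3p arms, usually the passenger strands, did not share 1 seed, and they are shown because the arms are compared below.
miR-30a-3p: gcTTTCAGTcggatgtttgcagct
miR-30d-3p: gcTTTCAGTcagatgtttgctgct
miR-30e-3p: gcTTTCAGTcggatgtttacagcg
miR-30c-1-3p: gcTGGGAGAgggttgtttactcct
miR-30c-2-3p: gcTGGGAGAaggctgtttactctc
miR-30b-3p: gcTGGGATGtggatgtttacgtca
The seed UUUCAGU was shared by 3 of them (miR-30a-3p, miR-30d-3p and miR-30e-3p), UGGGAGA by the 2 arms of miR-30c, and UGGGAUG belonged to miR-30b-3p alone. No 3p seed was shared between the miR-30a, miR-30d and miR-30e side and the miR-30b and miR-30c side.

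The 6 hairpins lie in 3 clusters of 2 (positions from RefSeq, overlapping genes from GENCODE M21, both on GRCm38). Mir30a (chr1:23272269-23272339) and Mir30c-2 (chr1:23291701-23291784) lie on the plus strand, 19361 bases apart, and Mir30c-2 overlaps an exon of the long noncoding RNA Gm27028. Mir30c-1 (chr4:120769534-120769622) and Mir30e (chr4:120772606-120772697) lie on the minus strand, 2983 bases apart, in introns of Nfyc, which is on that strand too and encodes a subunit of the CCAAT-binding factor NF-Y. A further hairpin, Mir30f, is annotated on the opposite strand of Mir30e, and no source used here says whether the counting used strand, so miR-30e values could hold reads of it. Mir30b (chr15:68337415-68337510) and Mir30d (chr15:68341208-68341289) lie on the minus strand 3697 bases apart and overlap exons of the noncoding transcripts Gm26621 and of Gm37296 and Gm20732. The miR-30c hairpins give the same guide, so miR-30c-5p is 1 feature that sums 2 loci on different chromosomes. This is visible in their RefSeq hairpins, with the mature arms in capitals.
Mir30c-1: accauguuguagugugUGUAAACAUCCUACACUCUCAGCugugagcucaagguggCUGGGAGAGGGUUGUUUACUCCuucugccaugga
Mir30c-2: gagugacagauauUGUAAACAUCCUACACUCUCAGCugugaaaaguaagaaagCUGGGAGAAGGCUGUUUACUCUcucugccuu

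The libraries held summed normalized counts of 8618630 to 12167438, of which microRNAs made up 73.0% to 82.0%. miR-210-3p, the microRNA named in the genotype, held 4786 to 39011 in the 4 WT libraries and 10 to 32 in the 4 KO libraries, so genotype titles and measured miR-210 went the same way in all 8. MicroRNAs abundant in fibroblasts (miR-21-5p, miR-199a-3p, miR-214-3p, miR-143-3p and miR-145-5p, the 5 listed) summed to 2638578 to 4100188 per library, against 100 to 290 for 7 epithelial, 102 to 191 for 2 endothelial, 832 to 3044 for 5 haematopoietic, 114 to 275 for 2 muscle microRNAs and 46 to 98 for the neural miR-9-5p. No listed marker was at 0 in all 8 libraries. In normoxia the haematopoietic sum was 2272 to 2351 in WT and 1018 to 2222 in KO. In hypoxia it was 1563 to 3044 in WT and 832 to 1535 in KO. The endothelial sum was 143 to 191 in WT normoxia and 102 to 132 in KO normoxia. Its values in hypoxia were 153 to 174 in WT and 117 to 145 in KO. miR-9-5p held 65 to 90 in WT normoxia and 59 to 63 in KO normoxia. The muscle sum was 114 to 121 in KO normoxia and 188 to 211 in KO hypoxia. There was no overlap in any of these comparisons. Of all features tested, 20.0% lay lower in KO than in WT in normoxia with no overlap, and 16.6% in hypoxia. In KO cells 15.8% lay higher in hypoxia than in normoxia with no overlap. The remaining pairwise comparisons of these sums overlapped, among them all those of the epithelial sum (142 to 236 in WT normoxia and 120 to 236 in KO normoxia). The part of these microRNAs' cell types in the miR-30 values was not tested. Ribosomal RNA took 5.76% of KO hypoxia number 1 and at most 2.88% of any other. KO normoxia number 2 held the lowest value of the 8 libraries for 145 of the 579 microRNAs tested (25.0%), followed by KO normoxia number 1 with 121 (20.9%) and WT hypoxia number 1 with 98 (16.9%). Of the 11 miR-30 features, 6 were lowest in KO normoxia number 2.

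The guide arms were among the abundant microRNAs of these cells. Each of the 5 ranked between 18 and 42 among the 813 microRNA features in every library. Summed, they made up 2.37% ± 0.0378 of the microRNA counts of WT cells in normoxia and 2.47% ± 0.247 in hypoxia, and 2.25% ± 0.312 and 2.50% ± 0.363 of those of KO cells (mean ± SD, n = 2). The lowest share was that of KO normoxia number 2, 2.03% (95% exact binomial interval 2.02% to 2.04%), and the highest that of KO hypoxia number 1, 2.76% (2.74% to 2.77%). Both intervals take a normalized count as 1 read, and no error but counting enters them. The 2 KO normoxia libraries (2.47% and 2.03%) spanned both WT normoxia libraries (2.35% and 2.40%), and the 2 KO hypoxia libraries (2.76% and 2.24%) spanned both WT hypoxia libraries (2.30% and 2.65%).

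**Figure D1:**
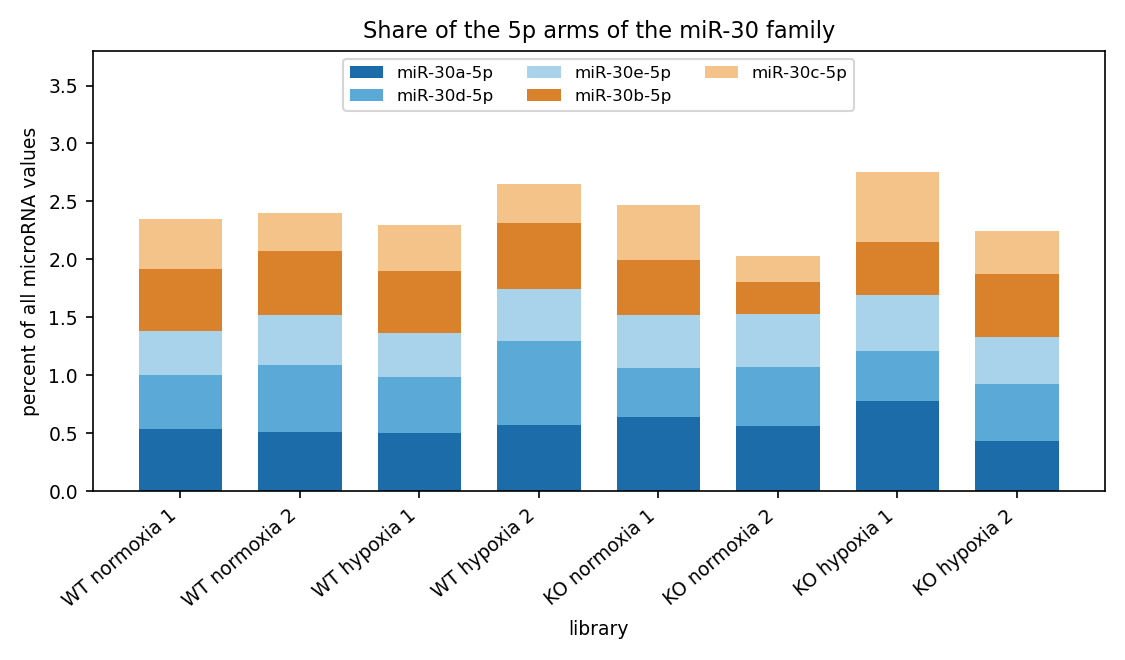
Share of all microRNA values (percent, y axis) held by the 5 miR-30 guide arms in each of the 8 libraries (x axis), stacked by member. The total runs from 2.03% in KO normoxia number 2 to 2.76% in KO hypoxia number 1, and miR-30b-5p and miR-30c-5p form the thinnest layers in KO normoxia number 2.

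miR-30a-5p, the guide of the chromosome 1 cluster, had 41605 and 47387 in normoxia and 39236 and 57025 in hypoxia in the WT cells, against 41534 and 44867 and then 54981 and 38624 in the KO cells (number 1, then number 2). Its highest library was 1.48 times its lowest, the narrowest range of the guides, and all 4 groups overlapped. miR-30e-5p, the guide from the Nfyc intron, had 29584 and 39434 in normoxia and 29644 and 44712 in hypoxia in the WT cells, against 29208 and 36123 and then 34278 and 36607 in the KO cells. Its highest library was 1.53 times its lowest, and its groups overlapped as well.

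miR-30d-5p, the guide of the hairpin beside Mir30b on chromosome 15, had 35667 and 53537 in normoxia and 37404 and 72700 in hypoxia in the WT cells, against 27777 and 39851 and then 30081 and 43847 in the KO cells. In every group the library numbered 2 was the higher one, as it was for miR-30e-5p. These were 2 of the 10 arms tested, where 16.0% of all features tested had number 2 above number 1 in all 4 groups. The opposite held for 1 arm, miR-30a-3p, and for 13.6% of all features. In every group number 2 also held the larger microRNA total. As a percent of that total miR-30d-5p was still higher in number 2 in every group. miR-30e-5p was not, with 0.487% in KO hypoxia number 1 and 0.410% in KO hypoxia number 2. What the numbers stand for is not stated in the labels.

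miR-30b-5p had 41504 and 51677 in normoxia and 41967 and 56405 in hypoxia in the WT cells, against 31212 and 22117 and then 32067 and 47886 in the KO cells. Both KO normoxia libraries and KO hypoxia number 1 lay below all 4 WT libraries, and KO hypoxia number 2 lay among them. miR-30c-5p, made from both miR-30c hairpins, had 32935 and 29813 in normoxia and 30975 and 33338 in hypoxia in the WT cells, against 30673 and 17728 and then 42672 and 33205 in the KO cells. Its 2 extremes were KO normoxia number 2 at the low end and KO hypoxia number 1 at the high end, and the other 6 libraries lay between 29813 and 33338.

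By their 8-library means the guides were ordered miR-30a-5p (45660 ± 7009, SD, n = 8), miR-30d-5p (42610 ± 14570), miR-30b-5p (40600 ± 11530), miR-30e-5p (34950 ± 5476) and miR-30c-5p (31420 ± 6830). No neighbours in that order differed beyond their spread. miR-30a-5p was above miR-30d-5p in 5 of 8 libraries, miR-30d-5p above miR-30b-5p in 3, miR-30b-5p above miR-30e-5p in 6 and miR-30e-5p above miR-30c-5p in 4. The reads of a mature microRNA need no length correction, but how well each sequence was captured in library preparation was not measured, so levels of different members are compared with that limit.

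**Figure D2:**
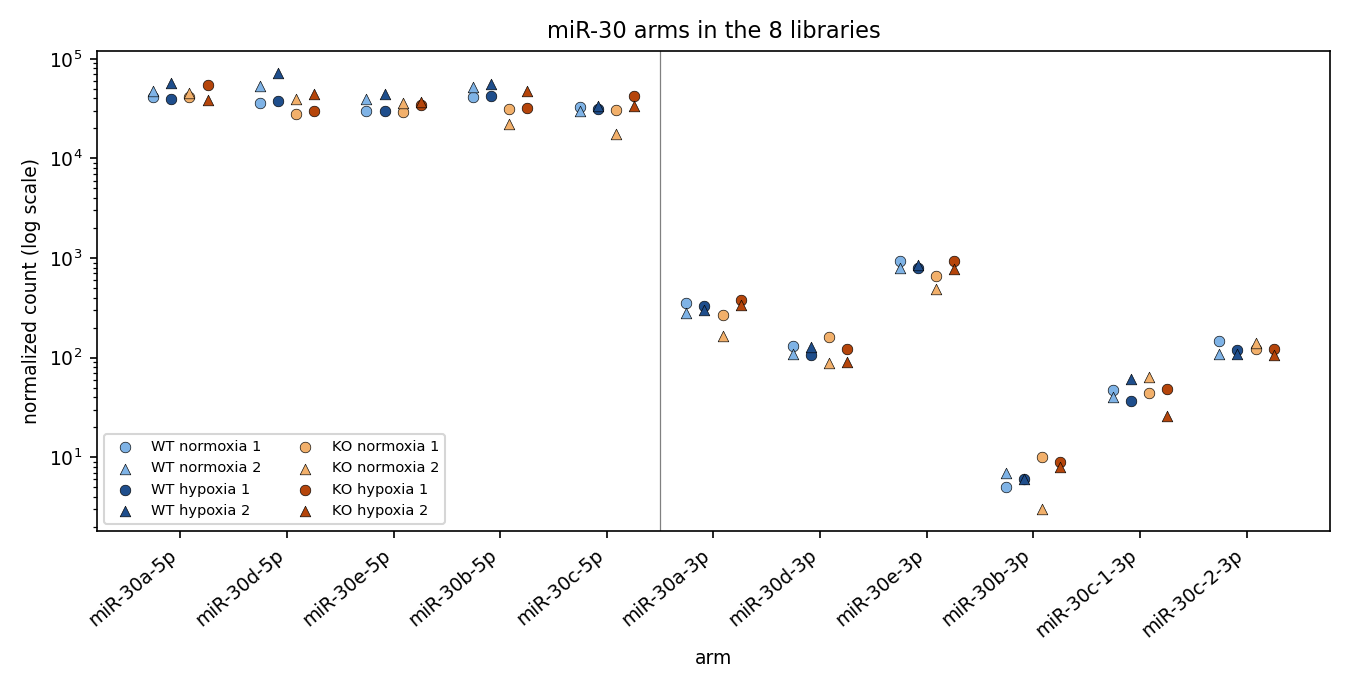
Normalized count (y axis, log scale) of the 11 miR-30 arms (x axis) in the 8 libraries, coloured by group, with circles for number 1 and triangles for number 2. The 5 guide arms on the left lie between 17728 and 72700 and the 6 3p arms on the right between 3 and 942.

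The 3p arms were far less abundant and made up 0.546% to 0.887% of the family's counts in a library. miR-30e-3p, the most abundant, had 934 and 799 in normoxia and 785 and 849 in hypoxia in the WT cells, against 663 and 492 and then 942 and 774 in the KO cells. miR-30a-3p had 357 and 282 in normoxia and 331 and 298 in hypoxia in the WT cells, against 270 and 166 and then 383 and 338 in the KO cells. For both arms the KO normoxia libraries were the 2 lowest of the 8. miR-30c-2-3p ran from 106 to 148 and miR-30d-3p from 89 to 162, with no library far from the rest. miR-30c-1-3p, the passenger of the Nfyc copy, ran from 26 (KO hypoxia number 2) to 64 (KO normoxia number 2). miR-30b-3p held 3 to 10 counts, and it was the only one of the 11 features that did not reach 10 in at least 2 libraries, so it was not tested. Its lowest value, 3 in KO normoxia number 2, had an exact Poisson interval of 0.619 to 8.77 and its highest, 10 in KO normoxia number 1, one of 4.80 to 18.4, so that a difference between its libraries was not detectable at this depth. The order miR-30e-3p, miR-30a-3p, then miR-30c-2-3p or miR-30d-3p, then miR-30c-1-3p and miR-30b-3p was the same in all 8 libraries, with miR-30c-2-3p above miR-30d-3p in 5 of them.

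The ratio of the arms was compared next, because it is taken within a library, where a single scaling factor would cancel. Whether the deposited values were scaled by a single factor per library is not stated. The guide exceeded the 3p arm by a median of 45.7 times for Mir30e, 149 for Mir30a, 265 for Mir30c-2, 399 for Mir30d, 723 for Mir30c-1 and 7183 for Mir30b. For miR-30c the guide counts of both hairpins entered each ratio. Expressed as log2((5p + 1)/(3p + 1)), the ratio of Mir30a was 7.33 ± 0.525 in KO and 7.18 ± 0.360 in WT (SD, n = 4), and that of Mir30e 5.60 ± 0.428 and 5.39 ± 0.342. The difference with the smallest p was a higher ratio of Mir30c-2 in hypoxia (8.25 ± 0.186) than in normoxia (7.70 ± 0.495, difference 0.55, exact two-sided permutation test, p = 0.0571, adjusted p = 0.571). None of the 10 tests, 5 hairpins by genotype and by oxygen, passed after Benjamini-Hochberg adjustment, and 0.0286 is the smallest p that 4 libraries against 4 allow. A single test at that p could not pass over 10 tests, so the absence of calls says little.

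**Figure D3:**
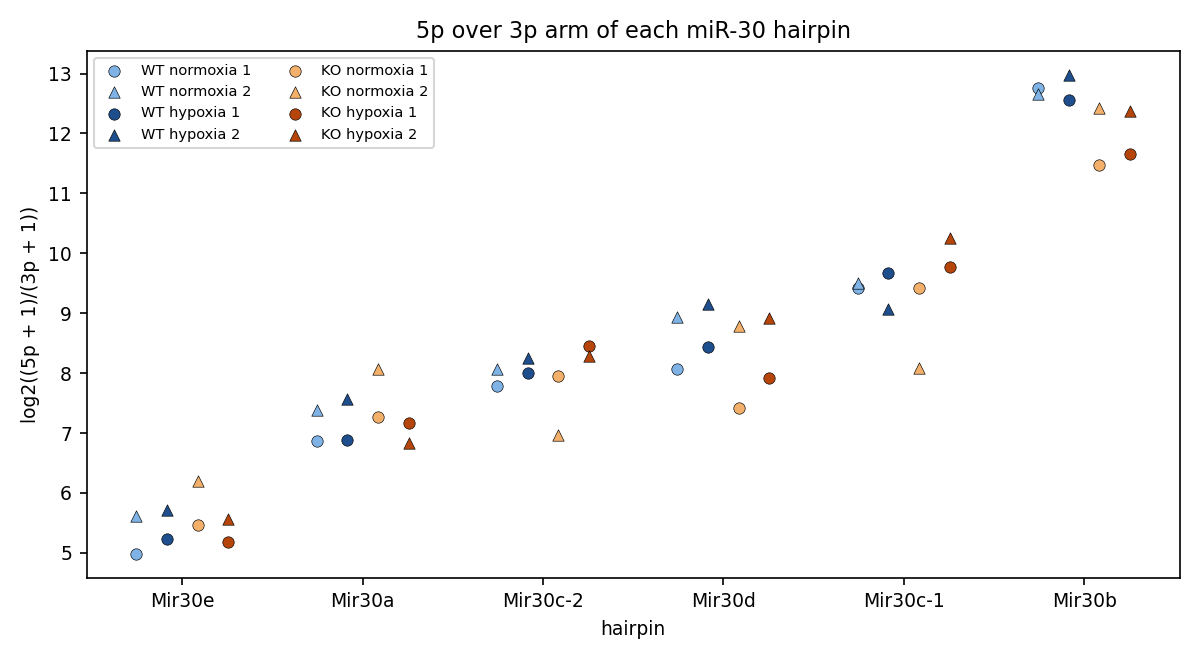
Ratio of the 5p to the 3p arm on the log2 scale (y axis) for the 6 miR-30 hairpins (x axis) in the 8 libraries, coloured by group, with circles for number 1 and triangles for number 2. KO normoxia number 2 is the highest point for Mir30a (8.07) and Mir30e (6.20) and the lowest for Mir30c-1 (8.09) and Mir30c-2 (6.97).

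In KO normoxia number 2 the guides parted along the sequence groups described above. There miR-30b-5p and miR-30c-5p lay 0.82 and 0.79 below their own 8-library means on the log2(value + 1) scale, and miR-30a-3p and miR-30e-3p 0.83 and 0.64 below. miR-30a-5p (−0.011), miR-30d-5p (−0.032) and miR-30e-5p (0.063) lay close to their means in the same library. The summed miR-30a, miR-30d and miR-30e guides exceeded the summed miR-30b and miR-30c guides 3.03 times there, and 1.44 to 1.94 times in the other 7 libraries. miR-30c-1-3p and miR-30c-2-3p, the arms that belong to 1 miR-30c hairpin each, were not low there (0.52 and 0.21 above their means), so the low miR-30c-5p could not be placed at either locus. miR-30d-5p over miR-30b-5p was 1.80 in this library and 0.859 to 1.29 elsewhere, miR-30a-5p over miR-30c-5p 2.53 against 1.16 to 1.71, and miR-30e-5p over miR-30c-5p 2.04 against 0.803 to 1.34. These ratios were formed after the values had been seen and are given without a test.

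**Figure D4:**
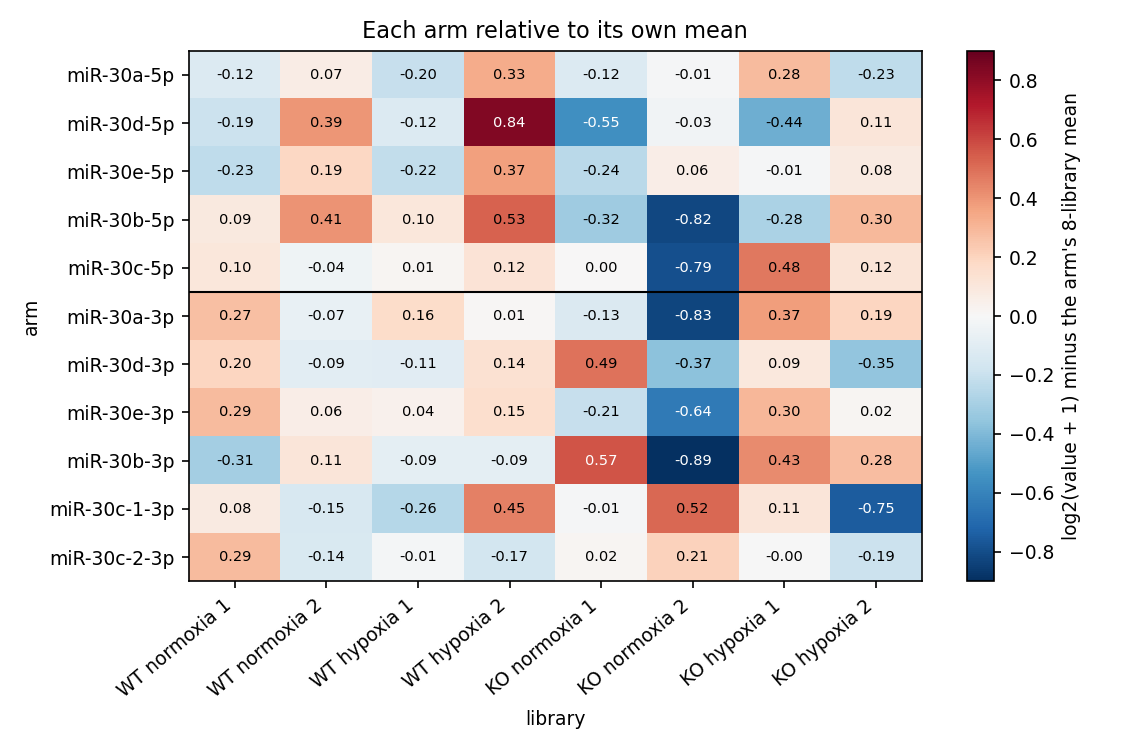
Each of the 11 arms (rows) in each of the 8 libraries (columns), as log2(value + 1) minus the arm's own 8-library mean. In the column of KO normoxia number 2, miR-30b-5p (−0.82), miR-30c-5p (−0.79) and miR-30a-3p (−0.83) are low, while miR-30a-5p (−0.011) is at its mean.

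Across the 8 libraries the members did not vary as 1 unit. On log2(value + 1), miR-30c-5p went with miR-30a-3p (r = 0.949) and miR-30e-3p (r = 0.912), and miR-30d-5p with miR-30e-5p (r = 0.863). Cluster partners had lower r over all 8 libraries, at 0.661 for miR-30b-5p and miR-30d-5p, 0.261 for miR-30a-5p and miR-30c-5p and −0.065 for miR-30e-5p and miR-30c-5p. Without KO normoxia number 2 the first 2 values of this paragraph were 0.748 and 0.650. The 3 pairs of cluster partners then came to 0.950, 0.54 and 0.084, so that their values over 8 libraries rest in part on that library. For miR-30b-5p and miR-30d-5p this was above miR-30d-5p with miR-30e-5p (0.873), so these partners were less alike only with that library included. These are descriptions over 8 libraries that share their scaling and depth. The 2 arms of 1 hairpin were not alike either, with r = 0.036 for Mir30a and 0.0048 for Mir30e.

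In WT cells no miR-30 arm differed between hypoxia and normoxia beyond the error of these libraries. Differences were tested by limma on log2(value + 1) over all 1540 features with at least 10 in at least 2 libraries, 10 of them miR-30 arms, with Benjamini-Hochberg adjustment and a threshold of 0.05. Of the 10 arms 0 passed in this comparison, where 0.0% of all features did, and 0 had an unadjusted p under 0.05, where 1.3% of all features did. The log2 differences ran from −0.16 (miR-30c-2-3p, SE 0.30) to 0.26 (miR-30d-5p, SE 0.39, limma adjusted p = 1.00 for both), with a median of 0.054 over the members and 0.016 over all features. The sign of both rested on single libraries: miR-30d-5p came to −0.22 without WT hypoxia number 2 and −0.038 without WT normoxia number 1, and miR-30c-2-3p to 0.049 without WT normoxia number 1. The 95% intervals of the 10 arms all included 0. Their outermost limits came from different arms, −0.85 (miR-30d-3p) and 1.13 (miR-30d-5p), and that of miR-30e-3p was narrower (−0.70 to 0.54). Changes inside an arm's own interval were not excluded. The libraries of the groups overlapped for all 10 arms, where 14.4% of all features lay higher and 11.4% lower in hypoxia with no overlap. By the microRNA total (−0.0081) or quantile normalization (−0.021) the members' median was negative. In the same comparison miR-210-3p, the usual hypoxia-responsive microRNA, differed by 2.55 (SE 0.50, limma adjusted p = 0.332), from 4786 and 8676 to 36738 and 39011, and did not pass either.

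In KO cells the differences between hypoxia and normoxia ran from −0.57 to 0.76, and none passed the test (0 of 10 arms, background 0.0%), and 1, miR-30a-3p, had an unadjusted p under 0.05 (5.39% of all features). miR-30a-3p was 0.76 higher in hypoxia (SE 0.32), miR-30c-5p 0.69 (SE 0.31), miR-30e-3p 0.58 (SE 0.28) and miR-30b-5p 0.58 (SE 0.32), with limma adjusted p = 0.804 for the first 3 and 0.807 for miR-30b-5p. In these 4 arms both hypoxia libraries lay above both normoxia libraries, as did 15.8% of all features tested. miR-30c-1-3p was lower by −0.57 (SE 0.44, limma adjusted p = 0.901). miR-30c-2-3p was the 1 arm with both hypoxia libraries below both normoxia libraries, against 13.1% of all features. The members' median was 0.13 against 0.016 over all features and 0.24 over the 579 microRNAs tested, and it turned to −0.083 with quantile normalization and −0.019 with scaling to the microRNA total, a scaling that moved the median of all features by −0.14. Without KO normoxia number 2 the differences were 0.41 for miR-30a-3p, 0.30 for miR-30c-5p, 0.36 for miR-30e-3p and 0.33 for miR-30b-5p (limma adjusted p = 0.988 for each). Leaving out KO normoxia number 1 instead, they were 1.11, 1.09, 0.79 and 0.83 (limma adjusted p of at least 0.213), so the size depended on which normoxia library was kept. Without KO hypoxia number 1, the library with most ribosomal RNA, they were 0.67, 0.51, 0.44 and 0.87 in the same order, and miR-30c-1-3p came to −1.002 (limma adjusted p of at least 0.855). Without KO hypoxia number 2, miR-30b-5p was at 0.29 and miR-30c-1-3p at −0.14. Within libraries numbered 1, miR-30b-5p was 0.039 higher in hypoxia and within number 2 it was 1.11 higher.

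**Figure D5:**
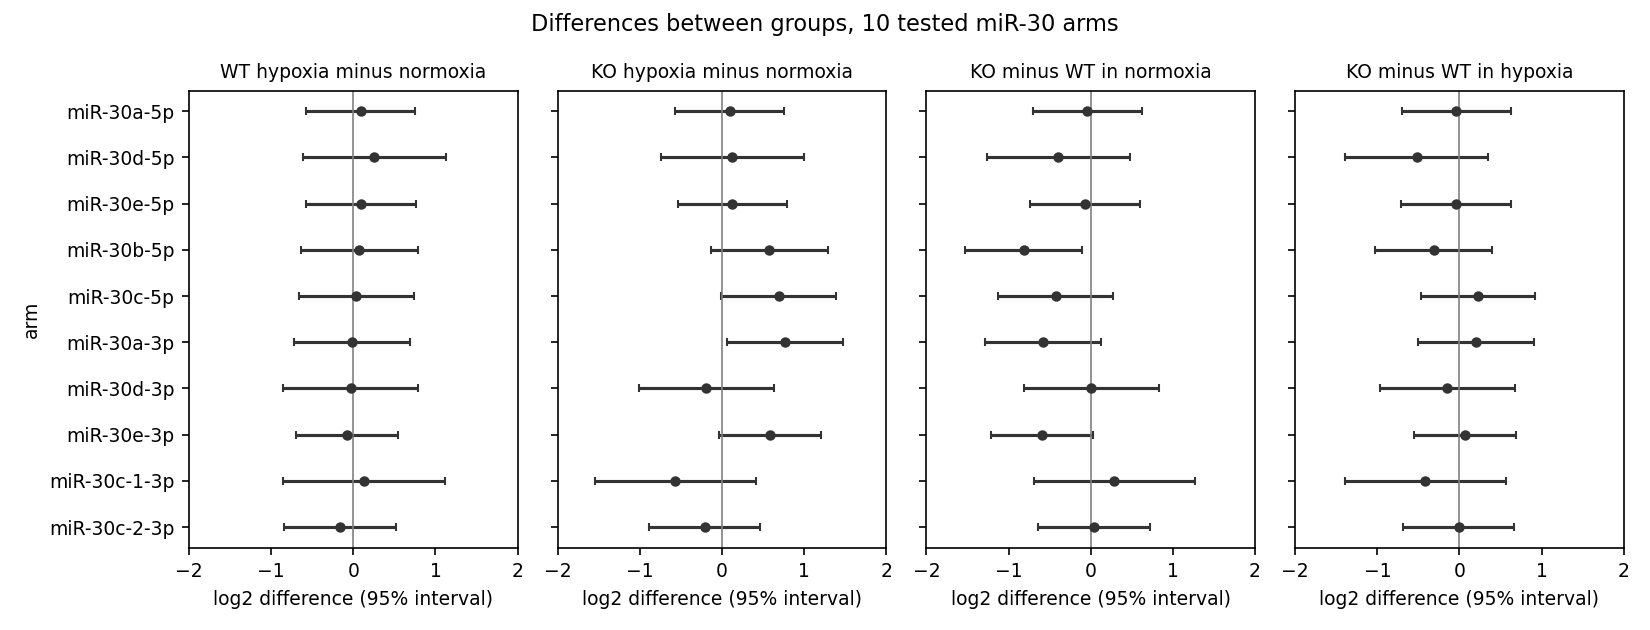
Log2 difference (x axis, points) with its 95% interval (bars) from limma for the 10 tested miR-30 arms (y axis) in the 4 pairwise comparisons of the 8 libraries. Most intervals include 0; those of miR-30a-3p in KO hypoxia minus normoxia (0.056 to 1.47) and of miR-30b-5p in KO minus WT in normoxia (−1.53 to −0.11) do not, and neither difference passed after adjustment.

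The comparison of genotypes in normoxia, which asks whether cells with the mir210lox/lox genotype hold other levels of the family at 21% O2, gave the lowest adjusted p of the 4 pairwise comparisons. miR-30b-5p was at 46590.5 ± 7193 in WT and 26664.5 ± 6431 in KO (SD, n = 2), a log2 difference of −0.82 (SE 0.32, limma adjusted p = 0.324). It was followed by miR-30e-3p (−0.60, SE 0.28, limma adjusted p = 0.376), miR-30a-3p (−0.58, SE 0.32, limma adjusted p = 0.463), miR-30c-5p (−0.43, SE 0.31) and miR-30d-5p (−0.39, SE 0.39). 0 of 10 arms passed, where 0.0649% of all features did (miR-210-3p alone), and 1 of 10 had an unadjusted p under 0.05, where 13.4% of all features did. Both KO libraries lay below both WT libraries for miR-30b-5p, miR-30e-3p and miR-30a-3p, 3 of 10 arms, against 20.0% of all features, and above them for 0 arms, against 21.9%. miR-30c-1-3p was 0.29 higher (SE 0.44), with values from 0.021 to 0.55 when 1 library was left out. The median was −0.23 over the members, −0.064 over all features and −0.28 over microRNAs, and with scaling to the microRNA total, which moved the median of all features by 0.23, the members' median was 0.0044. Without KO normoxia number 2 the differences were −0.57 for miR-30b-5p, −0.38 for miR-30e-3p, −0.23 for miR-30a-3p, −0.031 for miR-30c-5p and −0.65 for miR-30d-5p, with limma adjusted p of at least 0.654. Leaving out KO normoxia number 1 gave −1.07, −0.81, −0.93, −0.82 and −0.13 in the same order, with limma adjusted p of at least 0.195. miR-30d-5p was also at −0.10 without WT normoxia number 2 and at −0.69 without WT normoxia number 1.

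In hypoxia 0 of 10 arms passed the test between the genotypes, where 0.13% of all features did, and 0 had an unadjusted p under 0.05, where 9.03% did. miR-30d-5p had the largest difference, −0.52 (SE 0.39, limma adjusted p = 0.912), followed by miR-30c-1-3p at −0.42 (SE 0.44) and miR-30b-5p at −0.31 (SE 0.32, limma adjusted p = 0.967 for both). miR-30a-3p lay higher in both KO than in both WT hypoxia libraries, 1 of 10 arms, as did 19.2% of all features, and 0 arms lay lower with no overlap, against 16.6%. The members' median of −0.039 was close to that over all features, −0.044, and it was 0.018 with TMM factors and 0.12 on the microRNA total. Without KO hypoxia number 1 the differences were −0.25 for miR-30d-5p, −0.85 for miR-30c-1-3p and −0.023 for miR-30b-5p (limma adjusted p = 1.00 for each). Leaving out 1 library at a time, miR-30d-5p ran from −0.043 without WT hypoxia number 2 to −1.001 without WT hypoxia number 1, and miR-30b-5p from −0.023 to −0.60. miR-30c-1-3p came to 0.014 without KO hypoxia number 2.

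Averaged over both oxygen levels, the neighbours on chromosome 15 had the most negative differences of the 10 arms. miR-30b-5p differed by −0.56 (SE 0.22, 95% interval −1.07 to −0.061, limma adjusted p = 0.237) and miR-30d-5p by −0.46 (SE 0.27, −1.07 to 0.16, limma adjusted p = 0.509). Compared within the same number and oxygen level, KO was below WT in 4 of 4 pairs for both, by −0.41, −1.22, −0.39 and −0.24 for miR-30b-5p and by −0.36, −0.43, −0.31 and −0.73 for miR-30d-5p (normoxia 1 and 2, then hypoxia 1 and 2). These were 2 of the 10 arms, where 16.2% of all features had KO below WT in all 4 pairs, and 0 arms had KO above WT in all 4, against 16.6%. The microRNA total was lower in KO in these 4 pairs too. Both guides were also lower in KO in all 4 as a percent of that total. The mean differences of miR-30b-5p and miR-30d-5p were smaller with scaling to the microRNA total (−0.37 and −0.26) and with quantile normalization (−0.29 and −0.22). Without KO normoxia number 2 the mean differences were −0.44 and −0.59 (limma adjusted p = 0.449 for both). Leaving out each library in turn, they ran from −0.71 to −0.42 for miR-30b-5p and from −0.70 to −0.22 for miR-30d-5p, whose smallest value was that without WT hypoxia number 2. miR-30a-5p differed by −0.039 (95% interval −0.51 to 0.43) and miR-30e-5p by −0.056 (−0.53 to 0.42), and the sign of both turned to positive with TMM factors, quantile normalization and the microRNA total. 0 of 10 arms passed in this comparison, where 0.13% of all features did, and 1 (miR-30b-5p) had an unadjusted p under 0.05, where 17.8% of all features did. The 4 KO and 4 WT libraries overlapped for all 10 arms, where 8.38% of all features lay higher and 3.51% lower in KO with no overlap. The members' median was −0.084, against −0.058 over all features and −0.175 over the 579 microRNAs tested. With scaling to the microRNA total it was 0.11.

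Averaged over the genotypes, the oxygen comparison gave log2 differences from −0.22 to 0.37 over the 10 arms, none past the threshold (background 0.0%, lowest limma adjusted p = 0.975), and 0 arms had an unadjusted p under 0.05 (3.57% of all features). The 4 hypoxia and 4 normoxia libraries overlapped for all 10, where 0.519% of all features lay higher and 0.714% lower with no overlap. Within the same number and genotype, hypoxia was above normoxia in 4 of 4 pairs for miR-30d-5p, miR-30b-5p and miR-30e-5p (7.99% of all features) and below it in 4 of 4 for miR-30c-2-3p (6.23%). The microRNA total was higher in hypoxia in these 4 pairs too. As a percent of that total, none of the 3 guides was higher in hypoxia in all 4. miR-30d-5p went from 0.503% to 0.491% in KO number 2 and miR-30b-5p from 0.481% to 0.455% in KO number 1. miR-30e-5p went from 0.383% to 0.380% in WT number 1 and from 0.456% to 0.410% in KO number 2. miR-30a-5p differed by 0.093 (95% interval −0.38 to 0.56) and miR-30e-5p by 0.11 (−0.36 to 0.58). With quantile normalization both were negative, as was miR-30a-5p with scaling to the microRNA total. The interaction, the KO change with hypoxia minus the WT change, was 0.78 for miR-30a-3p (SE 0.45), 0.66 for miR-30e-3p (SE 0.39), 0.65 for miR-30c-5p (SE 0.44), 0.51 for miR-30b-5p (SE 0.45) and −0.70 for miR-30c-1-3p (SE 0.62). With KO normoxia number 2 left out these were 0.43, 0.45, 0.26, 0.26 and −0.44, and without KO normoxia number 1 they were 1.13, 0.88, 1.05, 0.75 and −0.97. Over all left-out libraries miR-30b-5p ran from 0.22 to 0.80 and miR-30c-1-3p from −1.13 to −0.27. The limma adjusted p of each over all 8 libraries was 1.00, with 0 of 10 arms called (0.0% of all features) and 0 with an unadjusted p under 0.05 (2.4%). The outermost limits of the intervals were −2.09 (miR-30c-1-3p) and 1.78 (miR-30a-3p). The median interaction was 0.018 over the members, 0.016 over all features and 0.25 over the 579 microRNAs tested. A difference in response inside an arm's own interval was not excluded. These comparisons share libraries and are not independent of each other.

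The microRNAs outside the family whose log2 levels followed the summed miR-30 guides most closely were miR-340-5p (Pearson r = 0.962 over 8 libraries), miR-503-3p (0.953), miR-9-3p (0.924), miR-365-3p (0.921) and miR-3095-3p (0.911), out of 569 microRNAs compared. They are the 5 highest of many coefficients over libraries that share depth and scaling, and miR-3095-3p held only 6 to 20 counts. Their r lay between 0.889 and 0.986 without KO normoxia number 2.

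Other microRNAs with described targets among matrix genes were set beside the family from a list of 8 (the mature guides of miR-29a, miR-29b, miR-29c, miR-133a, miR-133b, miR-18a, miR-19a and miR-19b), of which 7 were tested. 0 of 7 passed in any of the 7 comparisons, with backgrounds as given above. In KO against WT normoxia 7 of 7 had a lower value, with a median of −0.53 against −0.28 over all microRNAs tested, and none was called (lowest limma adjusted p = 0.324). As that microRNA median was below 0, most microRNAs tested were lower too. The direction differed among the other comparisons. Averaged over both oxygen levels, 6 of 7 were lower in KO (median −0.173 against −0.175 over all microRNAs tested). In WT hypoxia against normoxia 6 of 7 were lower (median −0.36 against 0.00023). In KO against WT hypoxia 5 of 7 were higher (median 0.13 against −0.045), and in KO hypoxia against normoxia 6 of 7 were higher (median 0.18 against 0.24). The most abundant were miR-19b-3p, which held 161846 to 252383 per library, miR-29a-3p, a regulator of collagen genes, with 96168 to 150179, and miR-19a-3p with 23407 to 47400. Between KO and WT in normoxia miR-29a-3p differed by −0.095 (SE 0.30) and miR-19b-3p by −0.53 (SE 0.28, limma adjusted p = 0.922 and 0.443).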

How the data were processed

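Small RNA was measured in 8 libraries, from miRNeasy RNA and with NEBNext reagents for SOLiD, per the labels. The authors deposited 1 table of normalized read counts, treated as a score because it is rounded to whole numbers and scaled. How reads were trimmed, aligned, assigned and normalized is not stated in any source used here.

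Features with at least 10 in at least 2 libraries (1540) were fitted with limma 3.58.1 (R 4.3.3, intensity trend) on log2(value + 1), with 4 group means, 4 residual and 5.64 prior degrees of freedom. P-values were two-sided and adjusted by Benjamini-Hochberg over all 1540. The fit was run on 5 simulated tables with 200 changed features each, drawn without differences between libraries of a group beyond sampling. These tables do not show what size of difference could be found in the real libraries. Arm ratios used exact permutation tests (scipy 1.17.1). The coordinates in the table belong to an unnamed build and are not printed. Members, lists and rules were chosen with earlier results of these data known. Named were all 11 arms, miR-210-3p as genotype check, the 5 microRNAs most alike and the 3 most abundant of the matrix list. Replicate numbers were not treated as pairs in the main fit, as their meaning is not stated. A pairwise comparison holds 2 pairs of one number and a mean comparison 4. Any difference between the numbers therefore stays in the standard errors and p-values of the main fit. Alternatives changed the pseudocount (8 or 0.5), the filter (none, or a mean of at least 50), the scaling (TMM, quantile, microRNA total, median of ratios), the trend, the features tested, the groups fitted and the replicate block, and left out each library.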

Additional observations from a re-analysis of the deposited data

Results flagged for a closer look

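The genotype difference of miR-30a-3p had opposite signs at the 2 oxygen levels. In normoxia both KO libraries (270 and 166) lay below both WT libraries (357 and 282), and in hypoxia both (383 and 338) lay above them (331 and 298). Of all features tested, 20.0% lay lower in KO in normoxia with no overlap, and 19.2% lay higher in KO in hypoxia. Over the 579 microRNAs tested the median genotype difference was −0.28 in normoxia and −0.045 in hypoxia, and the median interaction was 0.25. The difference between the genotype effects, 0.78 as a log2 difference with an SE of 0.45, did not pass (limma adjusted p = 1.00). Without KO normoxia number 2 the normoxia difference was −0.23 and the difference between the effects 0.43; without KO normoxia number 1 they were −0.93 and 1.13.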

How the results depend on the processing

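The count of miR-30 arms called was 0 in all 7 comparisons under each of 137 alternative counts. The 10 arm ratio tests also gave 0 calls throughout, which says nothing about stability in a design too small to pass. The lowest adjusted p of any arm was 0.104, for miR-30d-5p in the mean genotype comparison under the replicate block. With the replicate number as a block 0 arms were called in the 7 comparisons, while the most features called in 1 comparison went from 2 to 91. The labels do not say what a number marks, and deviations by number correlated at 0.151 to 0.551 between groups.

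Of 27 arm differences followed, 9 of 309 values under other settings turned direction, and none was called; the cause was not tested. For miR-30a-5p the mean hypoxia difference was −0.057 with quantile normalization and −0.010 with the microRNA total, and the mean genotype difference 0.028 with TMM factors, 0.22 with quantile normalization and 0.16 with the microRNA total. For miR-30e-5p the mean hypoxia difference was −0.048 with quantile normalization, and the mean genotype difference 0.011, 0.10 and 0.14 with the 3 scalings in that order. Sizes also changed. With quantile normalization KO against WT normoxia went from −0.82 to −0.36 for miR-30b-5p, −0.43 to −0.088 for miR-30c-5p and −0.39 to −0.029 for miR-30d-5p. It went from −0.58 to −0.72 for miR-30a-3p and from 0.29 to 0.33 for miR-30c-1-3p. KO hypoxia against normoxia went from 0.58 to 0.20 for miR-30b-5p and 0.69 to 0.42 for miR-30c-5p. For miR-30a-3p it went from 0.76 to 0.87 and for miR-30c-1-3p from −0.57 to −0.67. Leaving out 1 library turned 13 of 216 values, in 7 differences. In WT hypoxia against normoxia miR-30d-5p then ran from −0.22 to 0.73 and miR-30c-2-3p from −0.38 to 0.049, and in KO against WT hypoxia miR-30c-1-3p ran from −0.85 to 0.014. The mean hypoxia difference ran from −0.042 to 0.23 for miR-30a-5p and from −0.040 to 0.26 for miR-30e-5p, and the mean genotype difference from −0.17 to 0.096 and from −0.20 to 0.092.

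The share of the 5 guides was 1.89%, 1.99%, 1.71% and 1.90% of all small RNA features and 3.62%, 3.79%, 3.53% and 3.91% of microRNAs other than miR-21-5p (WT normoxia, WT hypoxia, KO normoxia, KO hypoxia). With 2 libraries per group, the standard errors of the pairwise differences were 0.28 to 0.44. miR-30b-3p was too low to test, and miR-30c-1-3p, with 26 to 64 counts, had the largest standard error; what counting error adds to it was not tested.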
